A study of Mus musculus with 12 samples.

Results

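The chemokines and their receptors were examined as a gene family in regenerating muscle of the mdx mouse. Members were taken by symbol: every Ccl, Cxcl, Ccr, Cxcr, Cx3c, Xcl1, Xcr1 and Ackr gene, with Pf4 and Ppbp, whose symbols do not follow the pattern. Of 28116 gene rows, 59 were members. Of these, 34 reached 0 log2 CPM, a level of 1 CPM (reads scaled to library size), in at least 3 of the 12 libraries, 22 ligands and 12 receptors, among 14063 genes that did so in all. The other 25 members reached it in fewer libraries or in none and were not tested.

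Each library came from a whole tibialis anterior muscle of a 4-month-old mouse of strain C57BL/10ScSn-Dmdmdx/J, whose mdx allele leaves the muscle without dystrophin, the protein missing in Duchenne muscular dystrophy. Every muscle received cardiotoxin (CTX), a venom toxin that kills muscle fibres and starts regeneration, in the same injection as antimiR106b, which blocks the microRNA miR-106b, or as antimiR-Scrambled, its control. The 4 groups held 3 animals each: the anti-miR-106b and the scrambled muscles taken 7 days after injection, and the anti-miR-106b and the scrambled muscles taken 3 days after it. The series text names another day for the later time in 1 sentence, whereas every label gives 3 or 7. All groups carried the mdx allele and the toxin, so no group compared here was uninjured or had dystrophin. The inhibitor's dose and chemistry, and whether an animal gave muscles to more than 1 group, are not given in the sources used here.

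Libraries held 28857739 to 42825246 reads, so that 1 CPM rested on 28.1 to 46.9 reads. All 8 muscle fibre marker genes were in the table, whose summed level was 145401 to 163214 CPM with anti-miR-106b at day 7, 157587 to 171131 CPM with scrambled at day 7, 54113 to 58998 CPM with anti-miR-106b at day 3 and 82862 to 99832 CPM with scrambled at day 3. Mitochondrial transcripts took 10.2 ± 0.391% of reads with anti-miR-106b at day 7, 9.59 ± 1.25% with scrambled at day 7, 4.81 ± 0.0186% with anti-miR-106b at day 3 and 7.64 ± 0.109% with scrambled at day 3 (SD, n = 3 each). The share of fibre and mitochondrial RNA therefore moved with both the day and the inhibitor, and its part in the results below was not tested. In whole muscle, fewer cells of a type and less RNA per cell cannot be told apart.

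Chemokines are small secreted proteins that bind G protein-coupled receptors on leukocytes and set the direction in which those cells move. After muscle injury, monocytes that carry CCR2 enter the tissue and become macrophages, which clear debris and later act on myogenic and stromal cells. Atypical receptors (the Ackr genes) bind chemokines without G protein signalling and remove or carry them.

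The inhibited microRNA is shown first because the comparison turns on it. Its RefSeq mature sequence, with the seed (bases 2 to 8) in capitals, lies at chr5:138165787-138165807 on the minus strand of GRCm38.p6.
miR-106b-5p: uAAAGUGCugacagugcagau
Perfect matches to this seed were looked for in the longest 3′ UTR that GENCODE M21 gives for a gene. None of the 34 expressed members held the 7-base match GCACTTT. Over 12923 tested genes with a 3′ UTR, 10.04% held that match and a further 4.426% held it with an A after it. The shorter 6-base match CACTTT was the best match in 10 of the 34, or 29.41%, against 27.29% over the tested genes. The median 3′ UTR was 810 bases in the members and 1196 bases in all tested genes. Among the 25 members below the level, Ccr3, the eotaxin receptor, and Cxcr6, the receptor for Cxcl16, each had a 7-base match, in capitals below; both genes lie on chromosome 9.
Ccr3 site: tacttaacttgGCACTTTtcttttgggta
Cxcr6 site: gagattttgaaGCACTTTctctctttcat
A match is a description of the letters and not evidence that the microRNA binds there. Cxcr6 had 9, 8 and 14 reads with anti-miR-106b at day 7, 9, 16 and 12 with scrambled at day 7, 68, 40 and 47 with anti-miR-106b at day 3 and 31, 32 and 35 with scrambled at day 3. Its reads were too few to enter the test. Scaled for depth, Cxcr6 was at 0.54, -0.14 and 0.32 log2 CPM with anti-miR-106b and -0.29, -0.16 and -0.01 with scrambled at day 3, and the groups overlapped.

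The promoters of Cxcl10, Cxcl9 and Cxcl14 are shown next, because the first pair are the interferon-induced ligands of CXCR3 that were expressed, and Cxcl14 was the ligand with the highest mean log2 CPM. The 250 bases before the RefSeq start site were searched, with the 50 bases after it, on both strands for GAAANNGAAA (an interferon-stimulated response element, ISRE), TTCNNNGAA (a STAT site, GAS) and GGGANNTNCC (a kappaB site). Matches are in capitals. All 3 stretches are from GRCm38.p6, on the minus strand, written 5′ to 3′.
Cxcl10 (chr5:92348890-92349139): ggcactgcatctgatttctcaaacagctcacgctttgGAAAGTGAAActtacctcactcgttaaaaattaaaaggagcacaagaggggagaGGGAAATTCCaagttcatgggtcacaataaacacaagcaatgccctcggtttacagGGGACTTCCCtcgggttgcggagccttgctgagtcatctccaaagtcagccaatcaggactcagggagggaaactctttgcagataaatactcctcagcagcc
Cxcl9 (chr5:92328080-92328329): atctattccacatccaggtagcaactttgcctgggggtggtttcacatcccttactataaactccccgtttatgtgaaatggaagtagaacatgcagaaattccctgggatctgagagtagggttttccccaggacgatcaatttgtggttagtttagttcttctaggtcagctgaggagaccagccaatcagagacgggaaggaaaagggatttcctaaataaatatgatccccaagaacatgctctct
Cxcl14 (chr13:56296552-56296801): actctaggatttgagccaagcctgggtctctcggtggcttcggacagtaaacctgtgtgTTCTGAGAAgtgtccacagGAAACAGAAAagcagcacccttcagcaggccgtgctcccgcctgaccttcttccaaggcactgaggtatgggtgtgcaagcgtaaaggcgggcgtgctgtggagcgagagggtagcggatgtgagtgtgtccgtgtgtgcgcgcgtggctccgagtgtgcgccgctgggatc
The Cxcl10 stretch held 1 ISRE and 2 kappaB matches, and the Cxcl14 stretch held 1 ISRE and 1 GAS match. In the Cxcl9 stretch no exact match to these patterns occurred. Stretches that depart from a pattern by 1 base were not searched for, so this does not show that such sites are absent. Of 34 expressed members, 25 had a RefSeq promoter entry, and of these 25 Cxcl10 and Cxcl14 were the ones with a match to any of the 3 motifs. These members had 28 promoter entries, of which 7.143% held the ISRE, 3.571% the GAS and 3.571% the kappaB motif. Over 13633 entries of tested genes the shares were 3.205%, 6.697% and 4.364%. Over 32851 mouse promoters of this length, 3.443% held the ISRE, 8.298% the GAS and 4.012% the kappaB motif. The differences between these shares were not tested.

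Summed chemokine levels were higher at day 3 than at day 7 in both arms, and their make-up differed. To compare genes with each other, CPM values were divided by exon length, giving CPM per kilobase. The length was that of all exons GENCODE M21 gives for a gene, with overlaps counted once. The summed level of the 22 ligands was 160 ± 22.5 with anti-miR-106b at day 7, 149 ± 20.2 with scrambled at day 7, 473 ± 22.5 with anti-miR-106b at day 3 and 363 ± 10.8 with scrambled at day 3 (SD, n = 3). At day 3 the sum was thus 1.30 times as high with anti-miR-106b as with scrambled, and the groups did not overlap (exact permutation test, two-sided p = 0.1, the smallest that 3 against 3 animals allow). At day 7 the ratio was 1.08 (exact permutation p = 0.7). The summed level of the 12 receptors was 18.8 ± 0.757 with anti-miR-106b at day 7, 20.01 ± 1.16 with scrambled at day 7, 66.4 ± 0.628 with anti-miR-106b at day 3 and 54.1 ± 0.476 with scrambled at day 3. The receptor ratio between inhibitors was 1.23 at day 3 (exact permutation p = 0.1) and 0.941 at day 7 (exact permutation p = 0.3).

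Cxcl14, a chemokine made by epithelia and stroma, was the most abundant ligand at day 7. Its share of the ligand sum was 30.9 to 32.9% in the anti-miR-106b libraries of day 7 and 29.96 to 41.6% in the scrambled libraries of day 7, against 8.38 to 9.77% in the anti-miR-106b libraries of day 3 and 12.7 to 13.3% in the scrambled libraries of day 3. Its own level per kilobase changed far less, at 50.8 ± 5.70, 54.6 ± 15.6, 42.0 ± 5.69 and 47.4 ± 2.48 in the same 4 groups. Its smaller share at day 3 thus stood beside higher levels of other ligands. Pf4, platelet factor 4 (CXCL4), and Ccl8, monocyte chemoattractant protein 2, were the 2 most abundant ligands of day 3. Pf4 stood at 23.4 ± 3.32 CPM per kilobase with anti-miR-106b at day 7, 16.0 ± 1.42 with scrambled at day 7, 115 ± 8.06 with anti-miR-106b at day 3 and 69.5 ± 2.52 with scrambled at day 3. Ccl8 stood at 17.4 ± 4.43, 15.7 ± 2.58, 110 ± 11.3 and 74.1 ± 0.556 in these groups. The ranges of Pf4 and Ccl8 overlapped in every group except scrambled at day 3, where Ccl8 was the higher of the pair in all libraries.

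Among receptors, Ackr3, the scavenging receptor of Cxcl12, held 38.1% of the sum with anti-miR-106b at day 7 and 36.9% with scrambled at day 7. It held 8.64% with anti-miR-106b at day 3 and 14.1% with scrambled at day 3. Cxcr4, the signalling receptor of Cxcl12, held 17.4%, 22.4%, 40.5% and 31.2% in the same groups and led at day 3. Ccr2, the receptor of inflammatory monocytes, held 13.8%, 11.9%, 21.97% and 25.9%. The lead of Cxcr4 over Ccr2 at day 3 depends on the exon length used, 1808 bases for Cxcr4 and 6760 for Ccr2. Before division by length, Ccr2 had a higher CPM than Cxcr4 in every day 3 library. Ackr1, the chemokine carrier of red cells and venules, held 13.2%, 13.6%, 3.31% and 4.30%, and its ranges overlapped those of Ccr2 in both day 7 groups.

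**Figure D1:**
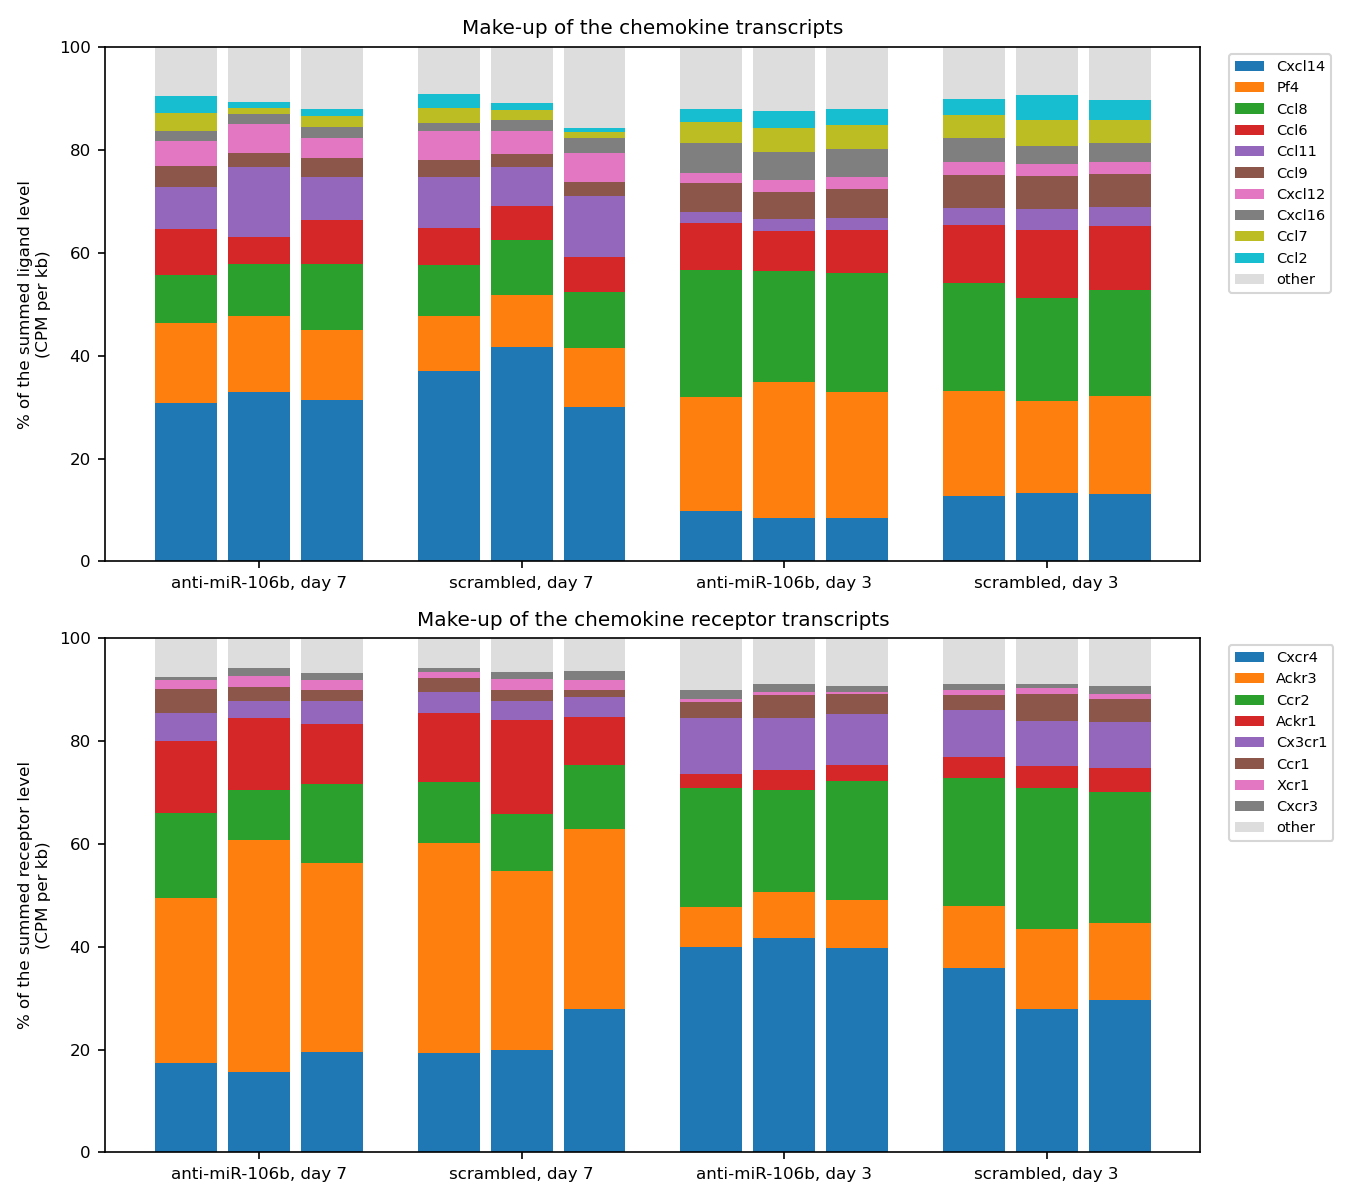
Stacked bars give each gene's percent of the summed level (CPM per kilobase) in each of 12 libraries, 3 bars a group, for ligands above and receptors below. Cxcl14 and Ackr3 take the largest shares in the 6 day 7 libraries, while Pf4 and Ccl8 among ligands and Cxcr4 among receptors take the largest in the anti-miR-106b libraries of day 3.

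At day 3 the inhibitor comparison moved 11 members, 9 higher and 2 lower with anti-miR-106b (limma on log2 CPM, Benjamini-Hochberg adjusted p below 0.05). Of all 14063 genes, 35.7% passed this test, 16.3% higher and 19.4% lower, so a share of 11 in 34 is near the background. The median difference over the 34 members was 0.28 on the log2 scale, against 0.01 over all genes, and 22 members had groups that did not overlap, 17 higher and 5 lower (of all genes 60.5% did not overlap, 31.2% higher and 29.3% lower). Higher were Pf4, Cxcl16, Cx3cl1, Ccl8, Cxcl9, Cxcl12 and Ccl12 among ligands and Cxcr4 and Cx3cr1 among receptors. Lower were the ligand Ccl11 and the atypical receptor Ackr3.

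Pf4, which platelets store and macrophages also make, had the smallest p of the family. It stood at 6.32, 6.49 and 6.31 log2 CPM with anti-miR-106b and at 5.70, 5.60 and 5.64 with scrambled at day 3. The lowest anti-miR-106b library lay above the highest scrambled library by more than the spread within either group. The difference was 0.73 ± 0.10 (SE) on the log2 scale, a 1.66-fold rise (adjusted p = 2.03e-04), and it passed under all 25 alternative settings.

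Among the monocyte attractants Ccl2, Ccl7, Ccl8 and Ccl12, which lie together on chromosome 11, Ccl8 and Ccl12 rose and Ccl2 and Ccl7 did not pass. Ccl8 was at 5.97, 5.70 and 5.74 log2 CPM with anti-miR-106b and 5.23, 5.24 and 5.25 with scrambled. Its scrambled libraries were almost equal and all below the anti-miR-106b ones, with a difference of 0.56 ± 0.15 (adjusted p = 0.0117), which missed the threshold without anti-miR-106b replicate 1 (0.48, adjusted p = 0.0536). Ccl12, a mouse CCR2 ligand, was at 2.77, 2.58 and 2.56 log2 CPM with anti-miR-106b and 1.53, 1.66 and 1.57 with scrambled, a difference of 1.05 ± 0.36 (adjusted p = 0.0371). Its day 3 groups were far apart and its day 7 values scattered between -2.01 and -0.48, and leaving out any of the 6 day 3 libraries ended the call (adjusted p = 0.0747 to 0.105). Ccl2, the main CCR2 ligand, was at 3.87, 4.14 and 4.04 with anti-miR-106b and 3.68, 4.38 and 4.04 with scrambled, overlapping fully, with an estimate of -0.02 (95% interval -0.98 to 0.95). Ccl7 was at 3.99, 4.14 and 4.07 with anti-miR-106b and 3.67, 3.92 and 3.69 with scrambled (0.30 ± 0.36, adjusted p = 0.528).

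Cxcl9 and Cxcl10 draw T and natural killer cells through CXCR3 and are induced by interferon. Cxcl9 was at 4.26, 4.16 and 4.15 log2 CPM with anti-miR-106b and 3.28, 3.30 and 3.28 with scrambled at day 3. These groups were tight and separate, with a difference of 0.90 ± 0.26 or 1.87-fold (adjusted p = 0.0156). Cxcl10, whose promoter carries the ISRE and kappaB letters above, was at 4.36, 5.00 and 4.71 with anti-miR-106b and 3.98, 3.26 and 3.49 with scrambled. Its groups did not overlap either and its estimate was the highest of the family, 1.11 ± 0.43, but it missed the threshold (adjusted p = 0.0578). It passed without scrambled day 7 replicate 1 (adjusted p = 0.00125) or replicate 3 (adjusted p = 0.0337), libraries that enter only the shared variance, and in 7 settings of scaling, added CPM, weights or groups fitted. The receptor Cxcr3 was at 0.88, 0.89 and 0.35 with anti-miR-106b and 0.18, -0.40 and 0.61 with scrambled, overlapping (adjusted p = 0.282). Cxcl11, another ligand of this receptor, was below the level with 22, 22 and 15 reads with anti-miR-106b and 8, 8 and 5 reads with scrambled at day 3. GENCODE M21 annotates it as a polymorphic pseudogene.

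The membrane-anchored ligands both rose. Cxcl16, the ligand of CXCR6, was at 6.44, 6.28 and 6.25 log2 CPM with anti-miR-106b and 5.61, 5.32 and 5.39 with scrambled, a difference of 0.89 ± 0.20 (adjusted p = 0.00379) that passed under all 25 settings. Part of the gene overlaps Zmynd15 on the other strand, and the counting's use of strand is not given, so reads of the pair cannot be told apart there. Cx3cl1 (fractalkine) was at 2.83, 2.96 and 2.62 with anti-miR-106b and 2.28, 2.44 and 2.39 with scrambled, without overlap, a difference of 0.44 ± 0.12 (adjusted p = 0.0102), lost without anti-miR-106b replicate 2 (adjusted p = 0.0556). Its receptor Cx3cr1, a gene of patrolling monocytes and macrophages, was at 5.02, 4.90 and 4.88 with anti-miR-106b and 4.47, 4.44 and 4.44 with scrambled. That difference was 0.49 ± 0.15 (adjusted p = 0.0191), and it missed the threshold without anti-miR-106b replicate 1 or scrambled replicate 2 or 3 (adjusted p = 0.0569 to 0.0684).

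The Cxcl12 axis changed at all 3 genes. Cxcl12, a stromal ligand that retains progenitors and leukocytes, was at 6.35, 6.50 and 6.38 log2 CPM with anti-miR-106b and 6.26, 6.12 and 6.11 with scrambled, a small difference of 0.25 ± 0.07 (adjusted p = 0.0166). Cxcr4 was at 5.59, 5.63 and 5.59 with anti-miR-106b and 5.12, 4.78 and 4.86 with scrambled, clearly apart, with a difference of 0.68 ± 0.15 or 1.60-fold (adjusted p = 0.0035) that passed under all 25 settings. Ackr3 moved the other way, at 4.11, 4.30 and 4.37 with anti-miR-106b and 4.42, 4.83 and 4.75 with scrambled (-0.41 ± 0.12, adjusted p = 0.0149). The call for Cxcl12 was lost without anti-miR-106b replicate 2 or scrambled replicate 2 or 3 (adjusted p = 0.0652 to 0.0827). The call for Ackr3 was lost without anti-miR-106b replicate 1 or scrambled replicate 2 or 3 (adjusted p = 0.0621 to 0.0767), and under scaling to total reads.

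Ccl11 (eotaxin), which draws eosinophils through CCR3 and is made by fibroblasts, was at 3.50, 3.52 and 3.49 log2 CPM with anti-miR-106b and 3.67, 4.03 and 3.85 with scrambled at day 3. It was lower with anti-miR-106b in every library, by -0.35 ± 0.12 (adjusted p = 0.0335). Leaving out any day 3 library except scrambled replicate 1 ended the call (adjusted p = 0.0763 to 0.153), as did scaling to total reads. The other CCR3 ligand, Ccl24, had an estimate of -0.02.

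**Figure D2:**
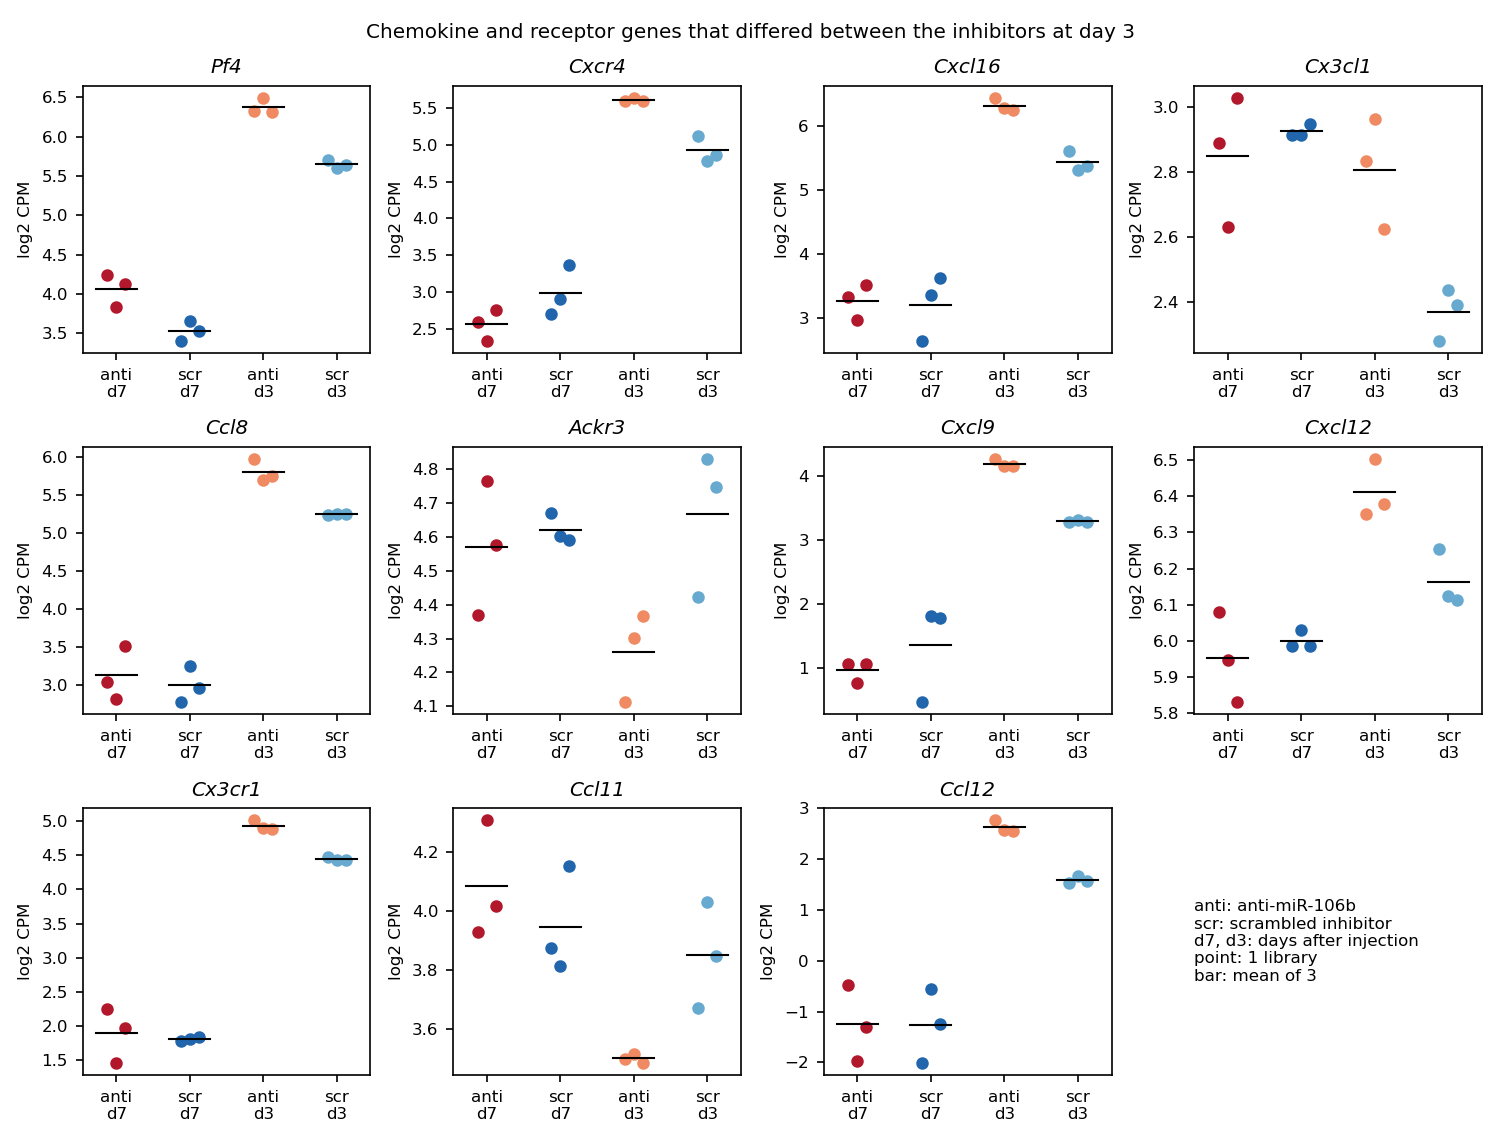
Each panel gives log2 CPM of 1 gene in every library, with points for libraries and a bar for the mean of 3, for the 11 members that passed at day 3. In 9 panels the day 3 anti-miR-106b points lie above the day 3 scrambled points, and in Ackr3 and Ccl11 below. All but Cx3cl1, Ackr3, Cxcl12 and Ccl11 are far lower in both day 7 groups.

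Several abundant members did not pass the inhibitor comparison at day 3. Ccr2 was at 6.69, 6.46 and 6.71 log2 CPM with anti-miR-106b and 6.50, 6.66 and 6.54 with scrambled, intermingled, with an estimate of 0.06 (95% interval -0.30 to 0.41). Cxcl14 was at 6.47, 6.17 and 6.12 with anti-miR-106b and 6.36, 6.51 and 6.44 with scrambled, with overlap and an estimate of -0.18 (95% interval -0.52 to 0.16). Ccl6, a rodent CCR1 ligand of macrophages, was at 6.35, 6.02 and 6.09 with anti-miR-106b and 6.15, 6.48 and 6.34 with scrambled, with overlap and an estimate of -0.17 ± 0.22. Ccl9, another such ligand, was at 6.41, 6.23 and 6.30 with anti-miR-106b and 6.09, 6.21 and 6.13 with scrambled, without overlap, an estimate of 0.16 ± 0.18. The macrophage inflammatory proteins Ccl3 and Ccl4 had estimates of 0.55 ± 0.56 and 0.57 ± 0.33. The other expressed members reported here, not described one by one, had day 3 differences between -0.49 (Ccl22) and 0.77 (Ccl5), and none passed. Intervals of this width do not show that the groups were alike.

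The ligands of CXCR2, which draw neutrophils, were scarce. Cxcl1, Cxcl2, Cxcl3, Cxcl5 and Ppbp were all in the table and all below the level, with 15 to 343 reads each over the 12 libraries. Cxcl5 had 0, 0 and 1 reads with anti-miR-106b at day 7, 2, 5 and 4 with scrambled at day 7, 51, 35 and 38 with anti-miR-106b at day 3 and 13, 8 and 7 with scrambled at day 3. Its reads were highest in the 3 anti-miR-106b libraries of day 3, without a test. Cxcl1 had 43, 44 and 27 reads with anti-miR-106b and 54, 32 and 35 with scrambled at day 3, with overlap. Their receptor Cxcr2 had 7, 15 and 10 reads with anti-miR-106b and 3, 3 and 3 with scrambled. Neutrophil marker genes were also low, at 25.7 to 30.7 CPM summed over 7 genes with anti-miR-106b and 15.5 to 27.0 CPM with scrambled at day 3.

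At day 7 no member passed between inhibitors. Of all genes, 0.064% passed, 0.00711% higher and 0.0569% lower, and limma gave 3 members with an unadjusted p below 0.05, namely Pf4, Cxcr4 and Ccl25, against 1580 of all genes. Pf4 was at 4.25, 3.84 and 4.12 log2 CPM with anti-miR-106b and 3.40, 3.66 and 3.52 with scrambled at day 7. The groups did not overlap, and the estimate was 0.54 ± 0.10 (adjusted p = 0.0613). Pf4 was the member whose groups stood apart upward and Ccl25 the one that did so downward, where 10.9% of all genes did not overlap, 5.18% higher and 5.69% lower. It passed without anti-miR-106b replicate 2 (0.66, adjusted p = 0.00896) or scrambled replicate 1 (0.48, adjusted p = 0.0301), and in 3 other settings. Cxcr4 was at 2.59, 2.34 and 2.76 with anti-miR-106b and 2.71, 2.90 and 3.37 with scrambled, with overlap and an estimate of -0.43 ± 0.15 (adjusted p = 0.293), the opposite sign to day 3. Without scrambled replicate 1 Cxcr4 passed (-0.57, adjusted p = 0.0491), as did Cxcl9 (-0.82, adjusted p = 0.00478), and without anti-miR-106b replicate 2 so did Ccl9 (0.67, adjusted p = 0.00896). Ccl25, a ligand of lymphoid homing receptor CCR9, had an estimate of -0.31 (adjusted p = 0.39). The median over the 34 members was 0.07, against 0.01 over all genes. The other members that passed at day 3 gave no call at day 7. Cxcl16 was at 3.34, 2.97 and 3.52 with anti-miR-106b and 2.65, 3.36 and 3.63 with scrambled. Cxcl9 was at 1.08, 0.78 and 1.07 with anti-miR-106b and 0.48, 1.82 and 1.78 with scrambled, whose replicate 1 was the lowest of all. Both genes overlapped between inhibitors. Cx3cl1 was at 2.89, 2.63 and 3.03 with anti-miR-106b and 2.91, 2.92 and 2.95 with scrambled, and Cxcl12 at 6.08, 5.95 and 5.83 with anti-miR-106b and 5.98, 6.03 and 5.98 with scrambled. Each of these overlapped as well, the scrambled libraries being the tighter group. Cx3cr1 was at 2.25, 1.46 and 1.96 with anti-miR-106b and 1.78, 1.80 and 1.83 with scrambled, and Ccl12 at -0.48, -1.96 and -1.30 with anti-miR-106b and -2.01, -0.55 and -1.25 with scrambled, with overlap.

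**Figure D3:**
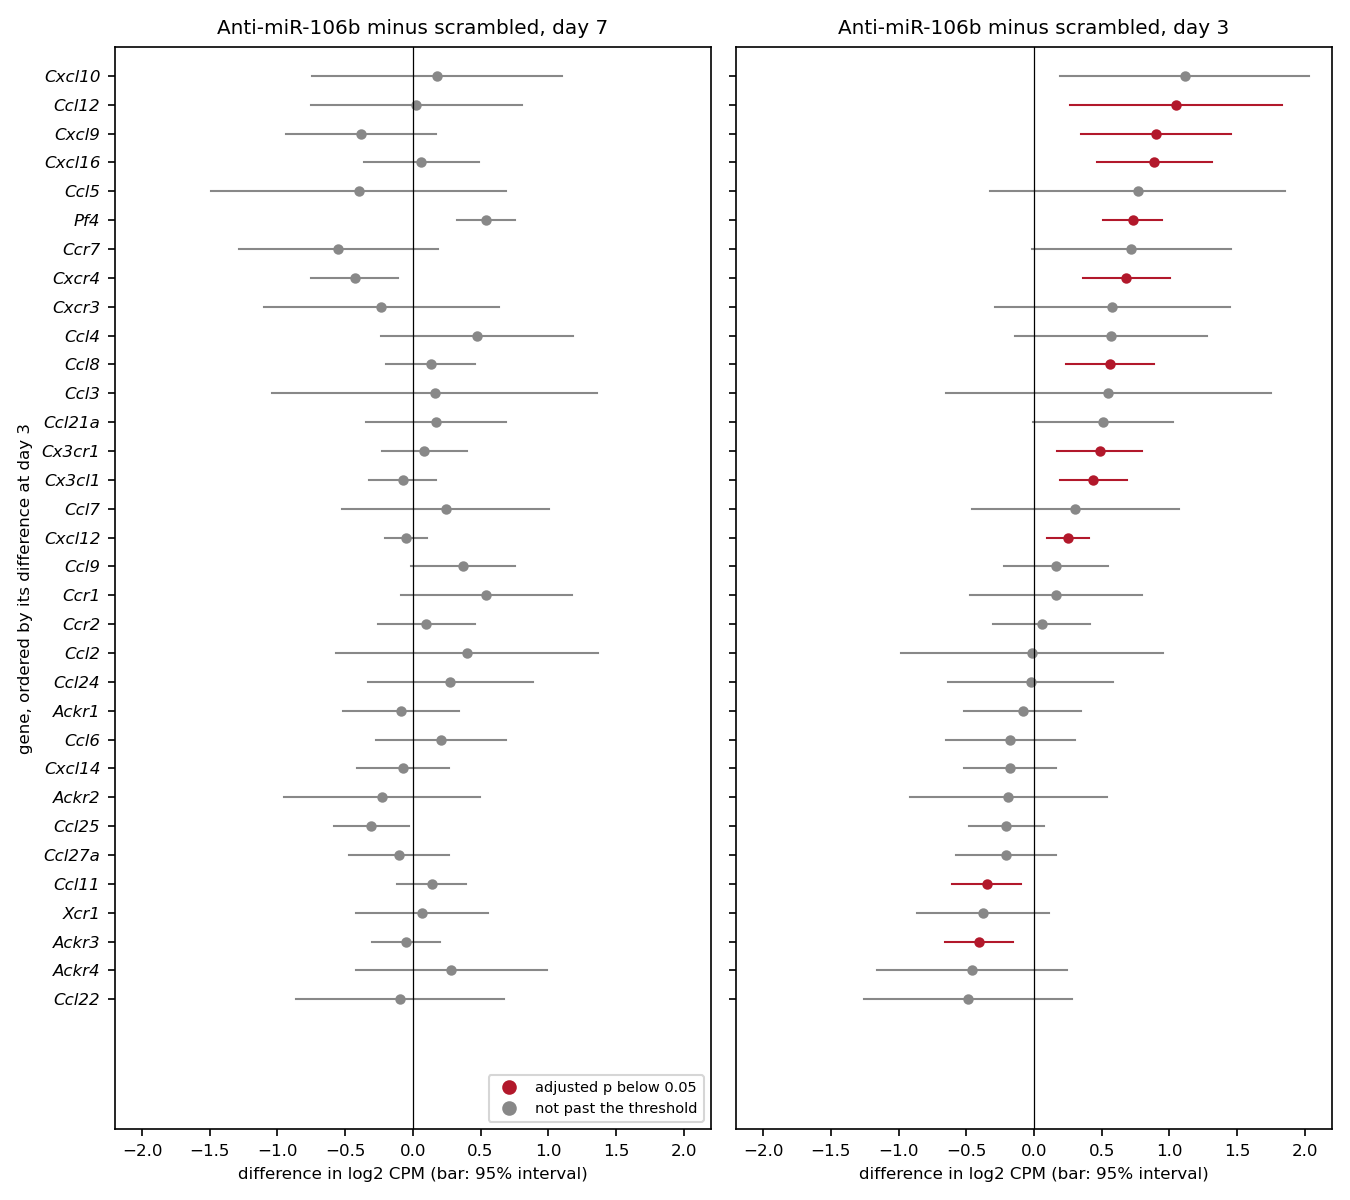
Points give the difference in log2 CPM, anti-miR-106b minus scrambled, at day 7 on the left and day 3 on the right, with 95% limma intervals as bars, for 33 genes in the order of their day 3 difference. The 11 red points on the right passed; none on the left did, where Pf4 has the interval farthest above 0.

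Whether the inhibitor's effect differed between days was tested as an interaction, and 4 members passed, all with a lower effect at day 7. Of all genes 22.3% passed, 13.2% with a higher and 9.07% with a lower effect at day 7. For Cxcr4 the effect was -0.43 at day 7 and 0.68 at day 3, a difference of -1.11 ± 0.21 (adjusted p = 0.00354) that passed under all 24 settings. For Cxcl9 it was -0.38 at day 7 and 0.90 at day 3, a difference of -1.28 ± 0.37 (adjusted p = 0.0237). For Cx3cl1 it was -0.08 at day 7 and 0.44 at day 3 (-0.51 ± 0.16, adjusted p = 0.0385), and for Cxcl16 0.06 at day 7 and 0.89 at day 3 (-0.82 ± 0.28, adjusted p = 0.0493). Leaving out 1 library ended the call of Cxcl9 in 6 of 12 cases (adjusted p = 0.0503 to 0.0608), namely replicate 2 of anti-miR-106b and replicates 2 and 3 of scrambled at day 7, and replicate 1 of anti-miR-106b and replicates 2 and 3 of scrambled at day 3. It ended the calls of Cx3cl1 and of Cxcl16 in 9 of 12 cases each (adjusted p = 0.051 to 0.104 and 0.0672 to 0.114). The number of members that passed was 1 without replicate 2 of scrambled at day 7, replicate 1 of anti-miR-106b at day 3 or replicate 2 or 3 of scrambled at day 3. It was 2 without replicate 3 of scrambled at day 7 or replicate 2 of anti-miR-106b at day 3, and 10 without replicate 1 of scrambled at day 7.

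Between the days most of the family was far lower at day 7. With scrambled, 24 members passed, 22 lower and 2 higher at day 7, while 68.2% of all genes passed, 35.3% lower and 32.9% higher. With anti-miR-106b, 26 members passed, 23 lower and 3 higher, while 78.7% of all genes passed, 40.8% lower and 37.9% higher. In each arm 26 members had days that did not overlap, as did 81.1% of all genes with anti-miR-106b (39.5% higher, 41.7% lower) and 72.4% with scrambled (34.9% higher, 37.5% lower). Of the members, 21 were lower in both arms, 1 was higher in both, and 6 passed in neither, namely Ackr1, Ackr2, Ackr4, Ccl21a, Ccl25 and Cxcl14. The lower members fell at least 4-fold in 19 cases with anti-miR-106b and 15 with scrambled. The share of all genes was not taken for the 4-fold counts or for those over both arms, so these have no background here. Ccl22, Ccl12, Ccl3, Ccl4, Ccr7 and Cxcr3 reached the level for testing in day 3 libraries alone, so their direction here was fixed by that limit. They are among the 21 counted as lower in both arms.

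Cxcl10 fell most. It stood at 0.55, -0.16 and -0.09 log2 CPM with anti-miR-106b at day 7, -1.44, 0.50 and 0.70 with scrambled at day 7, 4.36, 5.00 and 4.71 with anti-miR-106b at day 3 and 3.98, 3.26 and 3.49 with scrambled at day 3. Day 7 minus day 3 was -4.59 ± 0.43 with anti-miR-106b (adjusted p = 2.37e-07) and -3.66 ± 0.43 with scrambled (adjusted p = 5.42e-06). Scrambled day 7 replicate 1 was the lowest library. Ccl3 and Ccl4 also had much lower values, in a direction that the level for testing fixed. Ccl4 was at -1.23, -2.43 and -1.30 with anti-miR-106b at day 7, -2.66, -1.94 and -1.77 with scrambled at day 7, 1.95, 1.95 and 1.52 with anti-miR-106b at day 3 and 1.20, 1.21 and 1.32 with scrambled at day 3. Its change was -3.46 with anti-miR-106b and -3.37 with scrambled (SE 0.33). Ccl3 was scattered at day 7, at -0.69, -2.74 and -2.27 with anti-miR-106b and -2.97, -2.51 and -0.71 with scrambled, against 2.00, 1.61 and 1.80 with anti-miR-106b and 0.83, 1.26 and 1.68 with scrambled at day 3. Its change was -3.71 with anti-miR-106b and -3.32 with scrambled (SE 0.56).

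The monocyte attractants and their receptor were lower at day 7 in both arms. Ccl2 was at 2.72, 0.72 and 1.47 log2 CPM with anti-miR-106b at day 7 and 2.04, 1.44 and 0.24 with scrambled at day 7, a wide scatter within each group, and its change was -2.38 with anti-miR-106b and -2.79 with scrambled (SE 0.45). Ccl7 was at 2.21, 0.52 and 1.50 with anti-miR-106b at day 7 and 1.69, 1.42 and 0.39 with scrambled at day 7, and its change was -2.65 with anti-miR-106b and -2.59 with scrambled (SE 0.36). Within each arm the same library was highest and the same lowest for Ccl2 and Ccl7. Ccl8 was at 3.04, 2.82 and 3.51 with anti-miR-106b and 2.78, 3.24 and 2.96 with scrambled at day 7, a change of -2.68 with anti-miR-106b and -2.25 with scrambled (SE 0.15). The change of Ccl12, whose direction the level for testing fixed, was -3.88 with anti-miR-106b and -2.86 with scrambled (SE 0.36). Ccr2 was at 4.42, 3.56 and 4.32 with anti-miR-106b and 3.92, 3.98 and 4.11 with scrambled at day 7, and its change was -2.52 with anti-miR-106b and -2.56 with scrambled (SE 0.17). That of Cx3cr1 was -3.04 with anti-miR-106b and -2.64 with scrambled. Ccl6 changed by -1.76 with anti-miR-106b and -2.14 with scrambled, and Ccl9 by -2.26 with anti-miR-106b and -2.47 with scrambled. In the libraries of anti-miR-106b at day 7, replicate 2 was the lowest of the 3 for Ccl6 (3.66, beside 4.76 and 4.76) and Ccl9 (3.46, beside 4.40 and 4.28), and likewise for Ccr2 and Cx3cr1. The scrambled libraries of day 7 held 4.15, 4.34 and 4.06 of Ccl6 and 3.78, 3.73 and 3.52 of Ccl9, a narrower spread.

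For the 4 members with an interaction, the same contrast can be read as the change over time in each arm. Cxcr4 changed by -3.04 with anti-miR-106b and -1.93 with scrambled. Cxcl9 changed by -3.21 with anti-miR-106b and -1.93 with scrambled, and Cxcl16 by -3.05 with anti-miR-106b and -2.22 with scrambled. Cx3cl1 was 0.04 ± 0.12 higher at day 7 with anti-miR-106b (adjusted p = 0.746) and 0.56 ± 0.12 higher with scrambled (adjusted p = 7.65e-04). Pf4 changed by -2.31 with anti-miR-106b and -2.12 with scrambled (SE 0.10), with an interaction of -0.19 ± 0.14 (adjusted p = 0.36).

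Few members were higher at day 7. Cxcl14 passed in neither arm, at 6.59, 6.34 and 6.66 log2 CPM with anti-miR-106b and 6.53, 7.04 and 6.24 with scrambled at day 7, levels that overlap those of day 3. Ccl27a, a ligand of CCR10 known from skin, was at 2.90, 3.08 and 3.47 log2 CPM with anti-miR-106b at day 7, 3.21, 3.07 and 3.48 with scrambled at day 7, 2.32, 2.40 and 1.87 with anti-miR-106b at day 3 and 2.27, 2.60 and 2.36 with scrambled at day 3. It rose in both arms, by 0.95 ± 0.17 with anti-miR-106b and 0.84 ± 0.17 with scrambled, but near-identical copies of the gene make its counts uncertain. Under scaling to total reads the rise of Ccl27a was 0.33 with anti-miR-106b, past the threshold no longer (adjusted p = 0.0849), and 0.44 with scrambled (adjusted p = 0.0313). Ccl11 was at 3.93, 4.31 and 4.02 with anti-miR-106b at day 7 and 3.87, 3.81 and 4.15 with scrambled at day 7. Against day 3 it was higher by 0.58 ± 0.12 with anti-miR-106b (adjusted p = 4.24e-04) and by 0.10 ± 0.12 with scrambled (adjusted p = 0.485). Ackr3 was at 4.37, 4.77 and 4.58 with anti-miR-106b at day 7 and 4.67, 4.60 and 4.59 with scrambled at day 7, and was higher by 0.31 with anti-miR-106b (adjusted p = 0.0247). That call was lost without replicate 2 or 3 of day 7 or replicate 1 of day 3 (adjusted p = 0.0534 to 0.122). The difference between arms missed the threshold for Ccl11 (0.49, adjusted p = 0.0511) and for Ackr3 (0.35, adjusted p = 0.136). It passed for both without replicate 1 of scrambled at day 3 (adjusted p = 0.0309 and 0.0393). Under scaling to total reads the change of Ccl11 turned in both arms and those of Ackr3 and Cx3cl1 turned with anti-miR-106b, a scaling that moved the median of all genes by -0.65 with anti-miR-106b and -0.41 with scrambled. Cxcl12 fell by 0.46 ± 0.07 with anti-miR-106b, while with scrambled its change of -0.16 ± 0.07 missed the threshold (adjusted p = 0.0569) and passed without anti-miR-106b day 7 replicate 1 or 3 (adjusted p = 0.038 and 0.0391).

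**Figure D4:**
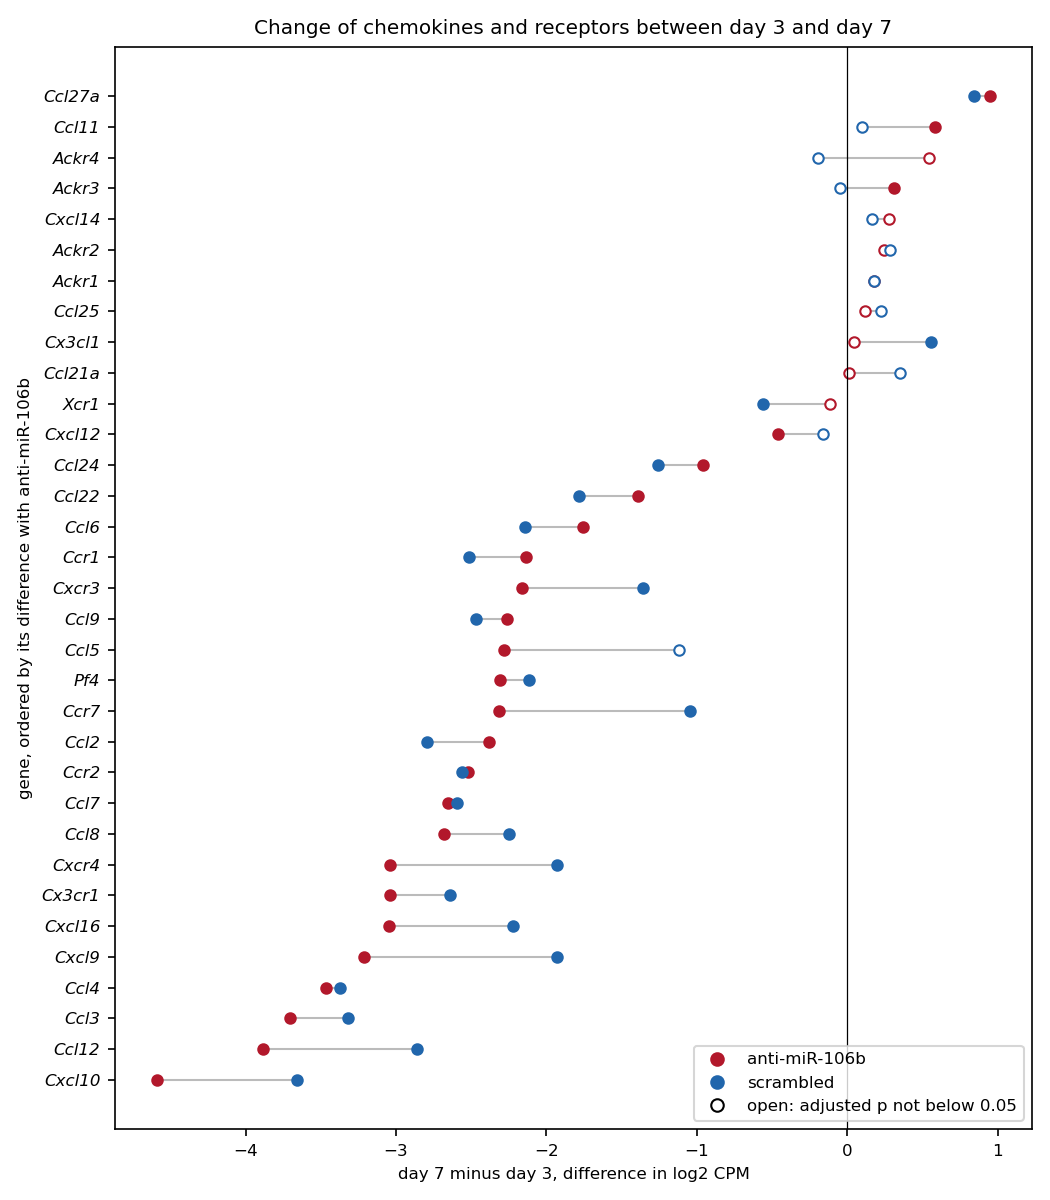
Points give the difference in log2 CPM, day 7 minus day 3, for 33 genes in the anti-miR-106b arm (red) and the scrambled arm (blue), filled where the adjusted p was below 0.05. Cxcl10 lies lowest in both arms at -4.59 and -3.66, Ccl27a lies highest at 0.95 and 0.84, and Cxcr4, Cxcl9 and Cxcl16 lie further left with anti-miR-106b than with scrambled.

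Partner genes of the pathway were described from lists that, like the members, were chosen with earlier results of these data known. Of 31 tested genes of chemokine receptor signalling, 14 were higher and 0 lower with anti-miR-106b at day 3, with a median of 0.31, where 16.3% of all genes were higher and 19.4% lower with a median of 0.01. The same shares of all genes stand beside each list that follows. They included the G protein subunits Gnb2 (0.53 ± 0.08, adjusted p = 3.24e-04) and Gnai2 (0.55 ± 0.10, adjusted p = 8.94e-04), the arrestin Arrb2 (0.83 ± 0.13, adjusted p = 4.21e-04) and Elmo1, which links receptors to Rac (0.44 ± 0.08, adjusted p = 0.00124). Leaving out 1 library gave 8 to 18 of these genes, the lowest counts without replicate 1 or 2 of either day 3 group. Of 16 genes of leukocyte adhesion, 5 were higher, among them F11r (0.33 ± 0.08) and Icam2 (0.53 ± 0.13), and 8 were without scrambled day 7 replicate 1. Under scaling to total reads 24 signalling genes and 11 adhesion genes were higher, as were 5159 of all 14063 genes, while 1389 genes were lower.

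Of 12 interferon genes that lie upstream of Cxcl9 and Cxcl10, 9 were higher and 1 lower with anti-miR-106b at day 3, with a median of 0.46. Stat2, a transcription factor of interferon receptors, rose by 0.74 ± 0.09 (adjusted p = 1.41e-04) and Irf7 by 1.14 ± 0.19 (adjusted p = 5.69e-04). At day 7, Stat2 had an estimate of -0.20 and Irf7 of -0.35, and none of the 12 passed. Of 15 NF-kB and inflammatory genes, 5 were higher, including Myd88 (0.59 ± 0.10) and Rela (0.38 ± 0.09), with 3 to 5 when 1 library was left out, and the fewest without replicate 1 or 2 of either day 3 group. Of 16 genes for chemokine-binding proteoglycans and chemokine-cutting proteases, 7 were higher and 3 lower. Sdc1 and Sdc3, syndecans, rose by 0.43 ± 0.08 and 0.50 ± 0.12, and Dpp4, a protease that trims chemokines, fell by 0.52 ± 0.15. The call for Dpp4 was lost when replicate 2 of either day 3 group, or replicate 3 of the scrambled one, was left out (adjusted p = 0.0586 to 0.0676). Leaving out each library in turn gave 3 to 8 higher and 0 to 4 lower, and the counts moved most without replicate 2 or 3 of either day 3 group. Under scaling to total reads 7 NF-kB and inflammatory genes and 10 proteoglycan and protease genes were higher and none of either list was lower, so the call for Dpp4 ended there too. At day 7 no gene of the 5 lists passed. Without scrambled day 7 replicate 1, Pecam1 (-0.38, adjusted p = 0.0221) and F11r (-0.40, adjusted p = 0.0271) of the adhesion list passed as lower. So did Mmp2 (-0.35, adjusted p = 0.0308) and Mmp14 (-0.41, adjusted p = 0.0224) of the protease list. Of all genes, 216 were then higher and 241 lower, against 1 and 8 with every library. Mmp12 passed as higher without anti-miR-106b day 7 replicate 2 (1.64, adjusted p = 0.00487).

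Markers of the cells that make and answer chemokines moved with these results, and their part in them was not tested. Of 11 macrophage markers, 8 were higher and 0 lower with anti-miR-106b at day 3, with a median of 0.66, where 16.3% of all genes were higher and 19.4% lower. Their summed level was 452 to 693 CPM with anti-miR-106b at day 7, 421 to 661 CPM with scrambled at day 7, 4654 to 5080 CPM with anti-miR-106b at day 3 and 3317 to 3383 CPM with scrambled at day 3. Of 7 tested inflammatory monocyte markers, only Plac8 passed (0.71 ± 0.24, adjusted p = 0.035), a call that ended without any of the 6 day 3 libraries. Another of them, Ly6c2, had an estimate of 1.04 and passed without anti-miR-106b day 7 replicate 3 (adjusted p = 0.0275). Of 6 tested T and NK cell markers, Cd4 (1.01 ± 0.27) and Gzma (1.03 ± 0.36) rose. The 12 listed markers of these cells summed to 21.7 to 30.5 CPM with anti-miR-106b and 14.6 to 15.8 CPM with scrambled at day 3. Cd4 had the highest mean of the 6, at 3.34 log2 CPM with anti-miR-106b and 2.33 with scrambled, and so weighs most in this sum. The T cell gene Cd3e was at a mean of -0.55 and -0.92 in these groups and did not pass. The call for Gzma was lost without any day 3 library except anti-miR-106b replicate 2 (adjusted p = 0.0584 to 0.141).

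Platelets store the product of Pf4, and the part of these cells in its day 3 difference was not tested. Over 7 platelet and megakaryocyte genes the summed level was 5.59 to 6.89 CPM with anti-miR-106b at day 7, 6.38 to 7.11 CPM with scrambled at day 7, 5.29 to 6.08 CPM with anti-miR-106b at day 3 and 6.49 to 6.55 CPM with scrambled at day 3. Itga2b, the platelet integrin, had an estimate of 0.01 (adjusted p = 0.956), and Gp1ba fell by 0.88 ± 0.18 (adjusted p = 0.00233). Of 8 muscle fibre markers, 7 were lower and 0 higher with anti-miR-106b at day 3, beside the 19.4% and 16.3% of all genes. Among the stromal and vascular sources of Cxcl12 and Ccl11, 2 of 7 fibro-adipogenic progenitor markers were higher, Col1a1 (0.47) and Ly6a (0.28), while the other 5 had negative estimates and the median was -0.03. Of these 5, Dcn (-0.19) passed as lower without scrambled day 7 replicate 1 (adjusted p = 0.0345), and 1 marker was higher without anti-miR-106b day 3 replicate 1. Of 8 endothelial markers, 3 were higher and none passed as lower, with a median of 0.11, and 5 were higher under scaling to total reads. Kdr, a VEGF receptor of endothelium, had an estimate of -0.28 (adjusted p = 0.0533) and passed as lower without replicate 1 of either day 7 group, replicate 3 of scrambled at day 7 or replicate 1 of scrambled at day 3 (adjusted p = 0.0207 to 0.0391). Of 6 satellite cell and myoblast markers, 4 were higher, and 2 without replicate 2 of either day 3 group, where Myod1 and Myog no longer passed (adjusted p = 0.0549 to 0.0716). None of 7 dendritic cell, 5 eosinophil and mast cell or 4 tested neutrophil markers passed by limma. The dendritic cell markers include Xcr1, which is also a member. All 4 neutrophil estimates were positive, from 0.46 to 1.47. Without scrambled day 3 replicate 3, S100a9 (2.85, adjusted p = 0.00327) and S100a8 (1.82, adjusted p = 0.0218) passed, and Csf3r did without anti-miR-106b day 7 replicate 2 (adjusted p = 0.043).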

How the data were processed

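RNA-seq of 12 whole muscles was analysed from the log2 CPM table that the authors deposited. The submitters' processing notes name the build mm10, the aligner STAR and the counter featureCounts, with limma 3.34.9, edgeR 3.20.9, Trim Galore 0.4.3.1 and FastQC 0.72; their settings and use of strand are not given in the sources used here. From the equal steps of the deposited log2 values, reads were recovered, whole within 0.001, to give totals and levels per kilobase of GENCODE M21 exon. As there are no molecular identifiers, copies of 1 molecule cannot be told from separate molecules. Libraries of the same group differed by more than counting error (chi-square per degree of freedom 4.90 to 58.1).

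Members and gene lists were chosen with earlier results of these data known. Genes reaching 0 log2 CPM in at least 3 columns were tested with limma 3.58.1 in R 4.3.3 on the deposited values, with 4 group means, a trended prior variance, two-sided tests and Benjamini-Hochberg adjustment over 14063 genes. The limma p-values rest on a spread for each gene that is pooled over the 4 groups of 3 animals and drawn toward a trend over all genes. The script was checked on simulated data. Members described in full were those that passed an inhibitor comparison or the interaction, the 5 ligands and 5 receptors with the highest mean, and up to 8 with the largest change in each direction between days; lists name up to 4 genes with the smallest p. Cxcl1, Cxcl5, Cxcl11, Cxcr2, Cxcr3, Cxcr6, Ccl24, Ccl25, Ackr1 and the markers Cd4, Gzma and Plac8 were described after their values were seen. Some genes counted in the totals, 1 member among them, are not reported here. Genes with near-identical copies (Ccl21a, Ccl27a) are uncertain. Alternatives covered filters, added CPM, normalizations, variance models, replicate blocks and leaving out each library.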

Additional observations from a re-analysis of the deposited data

Results flagged for a closer look

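In 4 members the effect of the inhibitor differed between the days by the interaction test, each with a lower effect at day 7 than at day 3. The difference of effects was -1.11 on the log2 scale for Cxcr4, -1.28 for Cxcl9, -0.51 for Cx3cl1 and -0.82 for Cxcl16 (limma adjusted p = 0.00354, 0.0237, 0.0385 and 0.0493). With 22.3% of all genes passing the same test, 4 of 34 members is below the background. Of the 4, Cxcr4 passed under all 24 alternative settings.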

How the results depend on the processing

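The planned edgeR and DESeq2 fits were not run, because the deposited unit is log2 and not counts; limma with voom weights on recovered reads was added after seeing the data. Against 11 members that passed at day 3, the count was 18 with 5 CPM added, 18 with library weights, 21 with only the compared groups fitted and 6 to 13 when each library was left out (6 without replicate 1 of anti-miR-106b or replicate 2 or 3 of scrambled at day 3, and 7 without replicate 2 of anti-miR-106b at day 3). Against 0 at day 7, it was 1 each with 1 CPM added, quantile normalization and equal medians, and 0 to 3 without a library (2 without anti-miR-106b day 7 replicate 2, 3 without scrambled day 7 replicate 1). Against 4 for the interaction, it was 2 with no filter, 9 with 1 CPM added, 13 with 5 CPM added, 7 with quantile normalization, 8 with scaling to total reads, 13 with library weights and 1 to 10 without a library.

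Scaling to total reads moved the median of all genes by 0.20 at day 3, and 13 members were then higher and 0 lower. Over time it turned Ccl11 with scrambled (-0.31) and, with anti-miR-106b, Ackr3 (-0.32), Ackr1 (-0.45), Ccl21a (-0.62), Ccl25 (-0.51), Cx3cl1 (-0.58), Ccl11 (-0.04) and Cxcl14 (-0.35); 0 members were higher and 30 lower with anti-miR-106b, and 1 higher and 26 lower with scrambled. With quantile normalization 8 were higher and 22 lower with anti-miR-106b and 7 higher and 20 lower with scrambled; with equal medians 7 and 23, and 5 and 21. The interaction had 1 higher and 6 lower under quantile normalization and 1 higher and 4 lower under equal medians. The fibre marker Tnnt3 at day 3 turned under quantile normalization (0.10). For each of these the cause was not tested.

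The deviations of same-numbered libraries from their group means were correlated by -0.042 to 0.144 within a day and -0.185 to 0.069 within an arm. With no other pairs set beside them, these values cannot decide whether such libraries share an animal, litter or batch. With a replicate block, 10 members passed at day 3, 0 at day 7, 26 over time with anti-miR-106b and 25 with scrambled, and 3 for the interaction; with blocks within a day the counts were 10, 0 and 5 for the inhibitor comparisons and the interaction.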
